A study of Homo sapiens with 12 samples.

Results

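The insulin-like growth factor (IGF) axis and its FOXO outputs were read across the 12 libraries through 10 genes chosen by name: IGF2, IGF1R, IGF2R, IGFBP2, IGFBP3, IGFBP4, IGFBP5, IRS2, FOXO1 and FOXO3. These genes held 11 of the 58735 rows of the table, because IGF2 had 2 rows. KGN and COV434, both labelled as ovarian granulosa cell tumour lines of wild-type genotype, were each left untreated or given 77-39, an inhibitor of the mitochondrial deacetylase SIRT3, with 3 libraries in each of the 4 groups. The labels give a dose of 10 μm/ml for 72 h and repeat it for the untreated libraries, do not name a vehicle, and do not say whether the 3 libraries of a group came from separate cultures, so p-values measure only the spread between these libraries. Each line is 1 cell line, and all groups grew in the same serum-containing medium.

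IGF1 and IGF2 are secreted growth factors. They act through IGF1R, a receptor tyrosine kinase that phosphorylates the adaptors IRS1 and IRS2, which recruit PI3K and thereby activate AKT. IGF2R, also the cation-independent mannose 6-phosphate receptor, does not pass this signal on but carries IGF2 and newly made hydrolases to lysosomes. The IGF binding proteins hold the ligands outside the cell and are cut by proteases such as PAPPA and HTRA1. AKT phosphorylates FOXO factors and keeps them out of the nucleus, where they otherwise drive genes of arrest, stress defence and autophagy, IRS2 among them. In granulosa cells the axis is known to act together with follicle-stimulating hormone, and IGFBP4 and its protease PAPPA are known from the follicle. RNA levels, as measured here, do not show phosphorylation or location of any of these proteins.

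Reads on genes ran from 15547851 to 18280415 per library. Values are FPKM (fragments per kilobase of exon, scaled by 1 divisor per library), so levels may be compared between genes. The divisor lay above the reads on genes in every library labelled KGN (18540179 against 16803402 in untreated library 1). It lay below them in every library labelled COV434 (16572406 against 17701495 in untreated library 1). Differences in FPKM between the lines carry this scaling. With limma voom on the recovered reads their median over all genes was -0.18 in place of 0.02. For a gene with 1 kb of exon, 3 reads were worth 0.152 to 0.2 FPKM, and values below that were taken as not measurable. The labels could not be reconciled with the markers. FOXL2, the granulosa transcription factor for whose mutation KGN is known, had at most 1 read in each library labelled KGN and 11.5 to 14 FPKM in those labelled COV434. SMARCA2, one of the SWI/SNF ATPases that COV434 is known to lack, had 1 to 3 reads in each library labelled KGN and 4.51 to 6.48 FPKM in those labelled COV434, and SMARCA4, the other, had 2.25 to 2.6 and 6.51 to 12.6 FPKM. These genes stood the other way round from what is known of the lines, and whether labels were exchanged was not tested. Every line is named below by its label alone, and directions between lines rest on these labels. Of the 10 granulosa markers, 3 had a mean of at least 1 FPKM in untreated libraries of either label, and FSHR had no read in any library. Their summed level was 61.8 to 67.5 FPKM in untreated and 51.5 to 53 FPKM in treated libraries labelled KGN, most of it WT1, and 25.1 to 26.3 and 21.4 to 26 FPKM in those labelled COV434, where WT1 had no read. The endothelial marker CDH5 had at most 1 read in the libraries labelled KGN, 1.57 to 2.22 FPKM in untreated and 0.341 to 0.626 FPKM in treated libraries labelled COV434. The epithelial keratin KRT7 was at 0 in the first and at 400 to 541 FPKM in the second. The other endothelial and epithelial markers listed stayed low in every library. PECAM1 reached at most 0.233, VWF 0.046 and CDH1 0.226 FPKM, and EPCAM at most 2 reads. The leukocyte marker PTPRC was at 0.188 to 0.378 FPKM in the libraries labelled KGN, and CD3E had no read in any library. Their part in the results was not tested.

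The region upstream of the start site is shown for the members with the clearest differences, IGF2R and IRS2, which rose with 77-39 in the libraries labelled KGN, and IGFBP4, which had the smallest adjusted p of the members between the lines. Each line gives the 250 bases before the RefSeq start site (GRCh38.p14), 5′ to 3′ on the gene's strand, and capitals mark every match on either strand to the E-box CACGTG, the GC box GGGCGG or the TATA box TATAAA.
IGF2R: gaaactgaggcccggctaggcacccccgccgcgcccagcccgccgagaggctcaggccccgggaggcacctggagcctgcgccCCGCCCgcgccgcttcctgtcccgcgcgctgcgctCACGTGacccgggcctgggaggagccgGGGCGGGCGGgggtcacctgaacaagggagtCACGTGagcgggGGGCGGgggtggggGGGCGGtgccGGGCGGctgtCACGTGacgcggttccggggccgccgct
IRS2: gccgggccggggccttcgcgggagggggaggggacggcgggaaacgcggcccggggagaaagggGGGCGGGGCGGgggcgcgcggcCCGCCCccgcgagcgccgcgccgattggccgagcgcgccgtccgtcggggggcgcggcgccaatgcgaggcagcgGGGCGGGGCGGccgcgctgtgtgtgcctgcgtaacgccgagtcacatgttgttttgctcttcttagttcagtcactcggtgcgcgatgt
IGFBP4: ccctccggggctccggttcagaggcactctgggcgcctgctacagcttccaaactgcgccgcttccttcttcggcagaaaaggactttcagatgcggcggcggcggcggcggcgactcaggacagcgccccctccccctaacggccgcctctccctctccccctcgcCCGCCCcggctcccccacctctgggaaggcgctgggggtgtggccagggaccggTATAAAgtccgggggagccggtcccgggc
These windows lie at chr6:159968832-159969081 (plus strand), chr13:109786584-109786833 (minus strand) and chr17:40443200-40443449 (plus strand), and no base of them is exonic in GENCODE 29. The IGF2R window held 3 E-boxes, the hexamer read by the MiT/TFE and MYC/USF families, and 6 GC boxes. At least 1 E-box was present in 6.35% and at least 3 in 0.0797% of the 35116 promoter windows of the same length, and at least 1 GC box in 42.6%. The IRS2 window held 5 GC boxes and no E-box, and that of IGFBP4 had 1 GC box and 1 TATA box, which 10.7% of windows contained. The windows were rich in CpG, with 33, 42 and 24 CpG dinucleotides against a median of 11 over all windows. The FOXO element GTAAACA, present in 2.98% of windows, was found in none of the 14 windows listed for the 9 members in the promoter table, IRS2 included, and this says only that these letters do not stand in these windows. The motifs were chosen with the results known, no binding was measured, and overlapping matches were each counted.

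In the untreated libraries the order of the members differed by line. In those labelled KGN, IGF2R led with 18.2 ± 1.23 FPKM (SD, n = 3), followed by IRS2 with 6.36 ± 0.114, FOXO3 with 5.81 ± 0.207, IGFBP4 with 1.73 ± 0.122, FOXO1 with 1.25 ± 0.129 and IGFBP2 with 0.946 ± 0.122 FPKM. IGF1R at 0.3 ± 0.0315 and IGFBP5 at 0.249 ± 0.0206 FPKM overlapped in range, and IGFBP3 stood at 0.128 ± 0.0486 FPKM. In those labelled COV434 the binding proteins led, with IGFBP4 at 87.9 ± 3.43 and IGFBP3 at 41.3 ± 11.5 FPKM (SD, n = 3). Then came IRS2 at 19.3 ± 5.4 and IGF2R at 13.3 ± 4.68 FPKM, whose ranges overlapped, and IGF1R at 5.24 ± 1.56 and FOXO3 at 4.19 ± 0.408 FPKM, whose ranges overlapped as well. FOXO1 followed at 2.12 ± 0.345 FPKM, while IGFBP2 and IGFBP5 had no read.

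**Figure D1:**
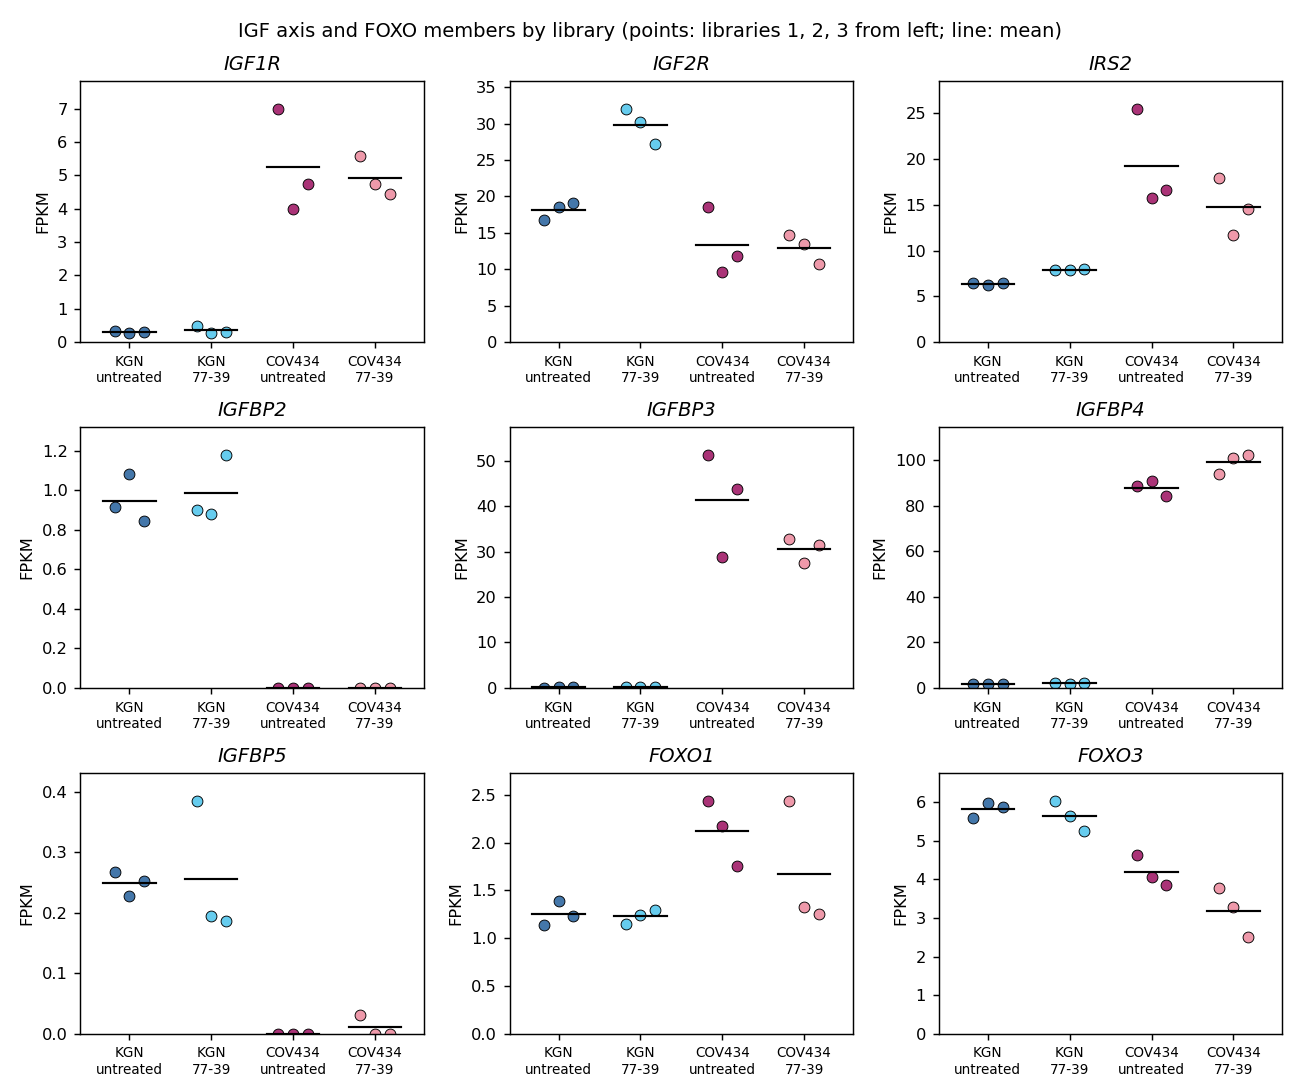
FPKM (linear axis from 0) of 9 members in the 12 libraries, by line label and treatment; points are libraries 1, 2 and 3 from left to right and the bar is the group mean. IGF2R in treated libraries labelled KGN lay between 27.1 and 32 FPKM, above every untreated one, while IGFBP3 and IGFBP4 were high only in libraries labelled COV434 and IGFBP2 only in those labelled KGN.

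Between the untreated lines, IRS2, IGFBP4 and FOXO1 were higher and FOXO3 was lower in the libraries labelled COV434 than in those labelled KGN (limma, adjusted p under 0.05). Of all 13098 genes tested, 69% passed and 74.1% had groups that did not overlap. IGF1R and IGFBP3 were also far higher in the libraries labelled COV434. They passed the filter of a mean of 1 FPKM only through those libraries and so had to differ. IGFBP2 and IGFBP5, higher in the libraries labelled KGN, did not pass it. The values of these 4 genes are therefore given as a description, with no test, and the direction of the members as a set is not read. As these are bulk libraries, fewer cells of a type and less RNA per cell cannot be told apart.

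IGF1R (ENSG00000140443, chromosome 15, 98648539 to 98964530), the signalling receptor, had 0.325, 0.265 and 0.31 FPKM in untreated libraries 1 to 3 labelled KGN and 6.99, 3.99 and 4.73 FPKM in those labelled COV434. All of the latter were higher, with a ratio of means of 17.5. On the scale of log2(FPKM + 1), which compresses such low levels, the difference was 2.23. INSR, the insulin receptor, ran the other way, with 3.46 ± 0.275 and 2.22 ± 0.799 FPKM (SD, n = 3; log2 difference -0.50, limma adjusted p = 0.0426).

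IGFBP3 (ENSG00000146674, chromosome 7, 45912245 to 45921874), the main IGF carrier of serum, had 0.0826, 0.179 and 0.122 FPKM (7 to 14 reads) in the untreated libraries labelled KGN. Its values in those labelled COV434 were 51.3, 28.7 and 43.8 FPKM, 323-fold higher by the ratio of means. IGFBP4 (ENSG00000141753, chromosome 17, 40443461 to 40457731), which restrains IGF until it is cut by PAPPA, went from 1.86, 1.62 and 1.71 FPKM to 88.7, 90.8 and 84.1 FPKM, a 50.7-fold ratio of means. The groups did not overlap for either gene, and the differences were 5.19 and 5.02 on the log2(FPKM + 1) scale. For IGFBP4, which passed the filter in both lines, the SE was 0.08 and the limma adjusted p = 3.88e-08.

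IGFBP2 (ENSG00000115457, chromosome 2, 216632828 to 216664436) and IGFBP5 (ENSG00000115461, chromosome 2, 216672105 to 216695525) are neighbours whose 3′ ends face each other 7668 bases apart. Both showed the opposite pattern to IGFBP3 and IGFBP4. IGFBP2 had 0.917, 1.08 and 0.842 FPKM (79 to 88 reads) in untreated libraries labelled KGN and no read in any of the 6 labelled COV434, so it was at least 25.2-fold higher in the former against a floor of 3 reads per library. IGFBP5 had 0.268, 0.227 and 0.252 FPKM (25 to 32 reads) against no read in the untreated libraries labelled COV434, at least 8.97-fold higher against the same floor. With 77-39, IGFBP2 stayed without a read in the libraries labelled COV434 and IGFBP5 had 3, 0 and 0 reads there. Both had means under 1 FPKM and were not tested.

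IRS2 (ENSG00000185950, chromosome 13, 109752698 to 109786568), the adaptor that couples the receptors to PI3K, had 6.42, 6.23 and 6.43 FPKM in untreated libraries labelled KGN and 25.5, 15.7 and 16.6 FPKM in those labelled COV434, which were all higher (log2 difference 1.43, SE 0.18, limma adjusted p = 0.000408). IRS1, its paralog, stood in the reverse order, with 33.1 ± 1.42 against 0.436 ± 0.191 FPKM (SD, n = 3), a 75.9-fold ratio of means and a log2 difference of -4.58, and passed the filter only through the libraries labelled KGN. IRS1 was thus the larger of the pair in FPKM in libraries labelled KGN and IRS2 in those labelled COV434.

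IGF2R (ENSG00000197081, chromosome 6, 159969099 to 160113507) had 16.8, 18.6 and 19.1 FPKM in untreated libraries labelled KGN and 18.6, 9.58 and 11.8 FPKM in those labelled COV434. Library 1 of the latter lay among the former, and the difference of -0.47 (SE 0.22) did not pass (limma adjusted p = 0.101). The call depended on that library and on the method. It was past the threshold without the library at -0.72 (limma adjusted p = 0.00111), and, with all libraries kept, under voom on the recovered reads at -0.71 (adjusted p = 0.0229) and in 1 fit of all 12 libraries at -0.47 (adjusted p = 0.049). FOXO1 (ENSG00000150907, chromosome 13, 40469953 to 40666597) had 1.13, 1.39 and 1.23 FPKM against 2.44, 2.17 and 1.75 FPKM and was higher in every library labelled COV434 (log2 difference 0.47, SE 0.11, limma adjusted p = 0.00831). FOXO3 (ENSG00000118689, chromosome 6, 108559835 to 108684774) had 5.58, 5.98 and 5.88 FPKM against 4.64, 4.06 and 3.86 FPKM and was lower in every one (log2 difference -0.40, SE 0.09, limma adjusted p = 0.00592). The 2 factors thus parted by line. FOXO3 is uncertain, since 64.2% of the 50-base windows of its pseudogene FOXO3B also occur in FOXO3. FOXO3B was listed at 3.27 ± 0.817 and 0.817 ± 0.304 FPKM (SD, n = 3) in untreated libraries labelled KGN and COV434, higher in the same libraries as FOXO3.

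IGF2 could not be read from this table. Its main row (ENSG00000167244, chromosome 11, 2129112 to 2149603) had 2 reads over all 12 libraries, both in libraries labelled KGN, and the second row (ENSG00000284779) had none. GENCODE 29 matches the coordinates and lengths of all 58735 rows. In it, 73.7% of the 6979 exon bases of the first row are shared with other genes on the same strand. For the second row the share is 89.97% of 5851. The genes sharing them include each other and the readthrough gene INS-IGF2. The first row keeps 1835 unshared exon bases and the second 587. Reads on bases of several genes are dropped by common counters, and the counter is not given in the sources used here. Among protein-coding genes with at least 90% of their exon bases shared in this way, 73.9% of 475 had at most 2 reads over the 12 libraries, against 14.8% of the 18012 with under 10% shared. Both IGF2 rows lie below that 90%, and genes shared to their degree were not counted apart. Of the 475, 282 share every exon base, and 247 of these had at most 2 reads. With the counter unknown, a low value of IGF2 does not show that its RNA was absent. H19, the imprinted RNA next to IGF2 and with exons of its own, was at 101, 126 and 139 FPKM in untreated libraries labelled COV434 and at 0 reads in those labelled KGN, at least 2164-fold lower there against the floor. IGF1, whose exons share no base with another gene on its strand, had 3 reads in all libraries, and INS had none. On the other strand, however, HELLPAR covers 82.4% of the 8122 exon bases of IGF1, and INS shares 31.7% of its exon bases with INS-IGF2. As the counter is not given, neither is its handling of strand. The low value of IGF1 thus does not show absence of its RNA either.

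**Figure D2:**
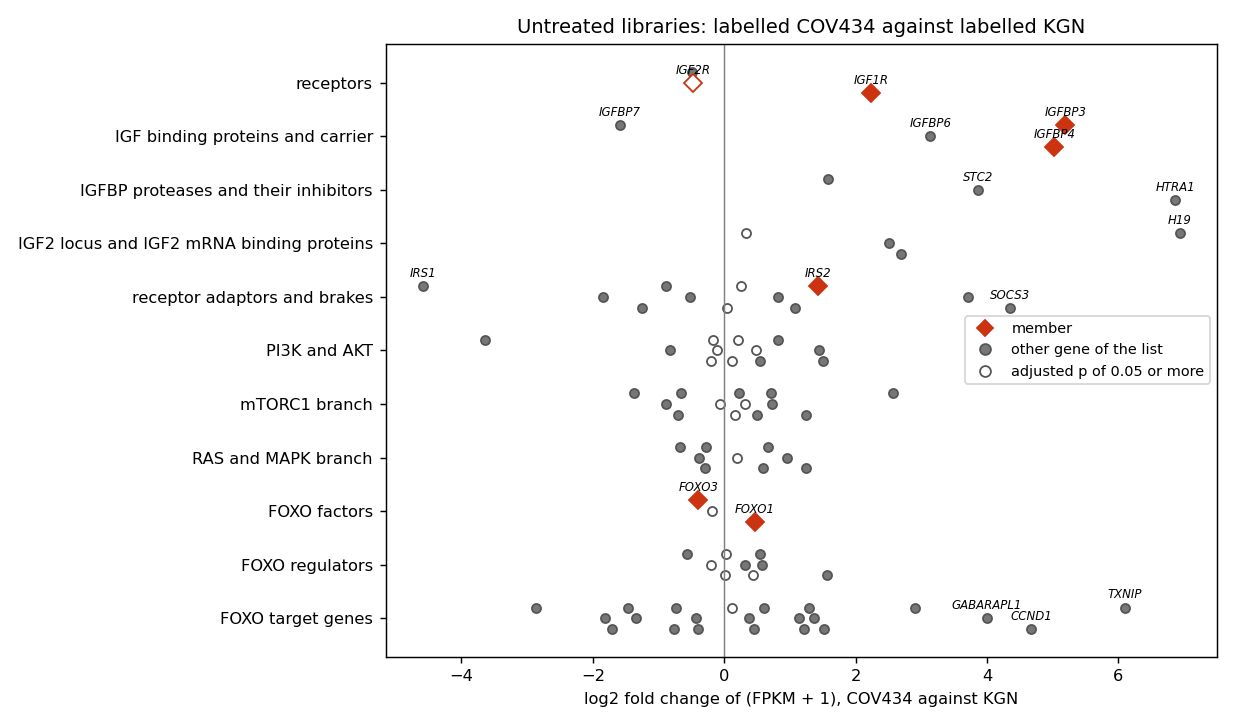
Difference between untreated lines, libraries labelled COV434 against those labelled KGN, as log2 fold change of (FPKM + 1), for the 94 tested genes of the wider IGF and FOXO list by role. Red diamonds are members and open symbols have an adjusted p of 0.05 or more. IGFBP3 and IGFBP4 stand at 5.19 and 5.02 and IRS1 at -4.58.

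Around the members, 121 genes of the pathway were read by role, and of the 94 tested 46 were higher and 28 lower in the libraries labelled COV434 (78.7%, beside 69% of all genes). Of the 94, 17 averaged under 1 FPKM in the untreated KGN group and 4 in the untreated COV434 group. Over all 13098 genes tested, these counts were 1385 and 1531. The part of the filter in the split was not tested. Genes under 1 FPKM in one line could enter only by being high in the other. Their values below are a description, with no test. Of the 5 genes listed as cutting binding proteins or restraining that cutting, 3 were tested, all of them entering in this way. HTRA1, a secreted serine protease, had 138 ± 27.2 against 0.183 ± 0.0584 FPKM (SD, n = 3; log2 difference 6.86), STC2, an inhibitor of PAPPA, 14.1 ± 2.57 against 0.0276 ± 0.0261 FPKM (3.86), and PAPPA itself 2.42 ± 0.826 against 0.123 ± 0.0369 FPKM (1.58). IGFBP6 had 10.7 ± 3.57 against 0.283 ± 0.0697 FPKM, while IGFBP7, the most abundant of the family, had 141 ± 59.4 against 396 ± 39 FPKM (log2 differences 3.14 and -1.58). Of these 5 genes only IGFBP7 was above 1 FPKM in both lines (limma adjusted p = 0.00538). INSR, PAPPA, IGFBP1, IGFBP6 and IGFBP7 were named after their values were seen. Among the 12 tested adaptors and brakes, 5 were higher and 5 lower (83.3%, beside 69% of all genes). SOCS3, a feedback inhibitor of cytokine and insulin receptors, was at 4.35. Of 22 tested FOXO targets, 12 were higher and 9 lower (95.5%, beside the same 69%). TXNIP, an inhibitor of glucose uptake, had 67.6 ± 3.95 FPKM and no read in any library labelled KGN, and CCND1, a cyclin that FOXO factors are known to repress, had 33.7 ± 10.2 against 0.332 ± 0.0895 FPKM (log2 differences 6.10 and 4.67). GABARAPL1, an autophagy gene, was at 29.5 ± 1.64 against 0.908 ± 0.0403 FPKM. SOCS3 and these 3 targets were under 1 FPKM in the libraries labelled KGN.

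With 77-39, 2 members rose in the libraries labelled KGN, the lysosomal receptor IGF2R and the adaptor IRS2. Of the 5 members tested there, the others were IGFBP4, FOXO1 and FOXO3, and none of the 5 fell. Of all 12671 genes tested, 34% passed at an adjusted p under 0.05 and 45.3% at an unadjusted p under 0.05, so 2 of 5 is close to the background. IGF2, IGF1R, IGFBP2, IGFBP3 and IGFBP5 had means under 1 FPKM and were not tested.

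IGF2R had 16.8, 18.6 and 19.1 FPKM in untreated and 32, 30.2 and 27.1 FPKM in treated libraries. The groups did not overlap, as was so for 49.7% of all 12671 genes tested there. The rise was 1.64-fold by the ratio of means, or 0.68 (SE 0.08, limma adjusted p = 0.00118) on the log2(FPKM + 1) scale. It rested on 5550 to 10356 reads per library, the most of any member in these libraries. IRS2 had 6.42, 6.23 and 6.43 FPKM in untreated and 7.9, 7.84 and 7.94 FPKM in treated libraries, which lay above all untreated ones in a narrow band. The rise was 1.24-fold, or 0.27 (SE 0.04, limma adjusted p = 0.00333). When all 12 libraries shared 1 estimate of the spread neither passed (limma adjusted p = 0.0507 and 0.381), which is the 1 alternative of 13 that removed these calls.

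IGFBP4 had 1.86, 1.62 and 1.71 FPKM in untreated and 2, 1.78 and 2.31 FPKM in treated libraries labelled KGN, with overlapping groups (log2 fold change 0.15, limma adjusted p = 0.243). FOXO1 had 1.13, 1.39 and 1.23 against 1.15, 1.24 and 1.3 FPKM (-0.01, adjusted p = 0.917), and FOXO3 5.58, 5.98 and 5.88 against 6.04, 5.63 and 5.24 FPKM (-0.04, adjusted p = 0.643). Both FOXO factors overlapped between treatments. Of the members not tested, IGF1R had 0.49, 0.285 and 0.313 FPKM in treated libraries, IGFBP2 0.902, 0.881 and 1.18 FPKM, IGFBP3 0.157, 0.186 and 0.105 FPKM and IGFBP5 0.385, 0.194 and 0.186 FPKM, each overlapping with its untreated libraries.

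**Figure D3:**
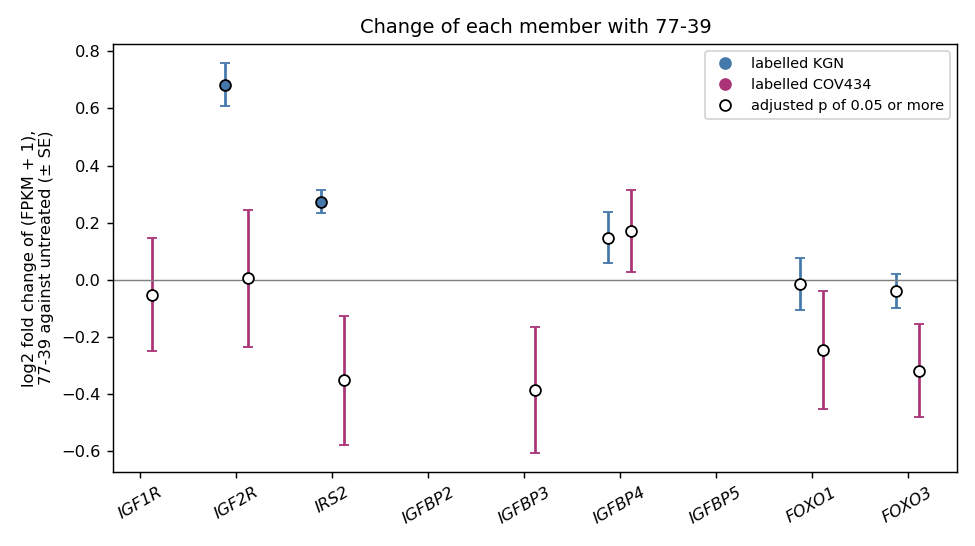
Log2 fold change of (FPKM + 1), 77-39 against untreated, with its standard error, for each member tested in the libraries labelled KGN (blue) and COV434 (purple); filled points have an adjusted p under 0.05. IGF2R at 0.68 and IRS2 at 0.27 in the libraries labelled KGN are the only filled points, and IGFBP2 and IGFBP5 were not tested in either line.

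Around these members in the libraries labelled KGN, 21 of 80 tested pathway genes rose and 15 fell (45%, beside 34% of all genes), with a median log2 fold change of 0.02 against 0.01 over all genes. FOXO4, the third FOXO factor tested, fell where FOXO1 and FOXO3 did not pass, from 7.9 ± 0.413 to 3.96 ± 0.24 FPKM (SD, n = 3, log2 fold change -0.84, SE 0.06, limma adjusted p = 0.000288). Its groups did not overlap, as for 49.7% of all genes tested. Among the 10 tested adaptors and brakes 5 rose and 1 fell (60%, beside 34% of all genes). The one that fell was IRS1, from 33.1 ± 1.42 to 25.9 ± 0.341 FPKM (log2 fold change -0.34, adjusted p = 0.00234), so IRS1 and IRS2 moved in opposite directions. SOS2, an exchange factor of RAS (0.49), PTPN11, the phosphatase SHP2 (0.38), and the adaptor SHC1 (0.30) rose, as did NRAS (0.35), with limma adjusted p from 0.0016 to 0.00519. AKT2 fell (-0.24, limma adjusted p = 0.00514). Of 17 tested FOXO targets 4 rose and 3 fell (41.2%, near the 34% of all genes). MAP1LC3B, which encodes the autophagosome protein LC3B, rose from 21.9 ± 1.04 to 36.1 ± 0.0514 FPKM (log2 fold change 0.70, limma adjusted p = 0.000247), and BCL6, a transcriptional repressor, rose by 0.36 (adjusted p = 0.00431). BNIP3, a mitophagy receptor that hypoxia also induces, fell from 19.1 ± 1.99 to 9.15 ± 0.418 FPKM (-0.98, adjusted p = 0.000407). In 1 fit of all 12 libraries FOXO4, MAP1LC3B and BNIP3 still passed, while IRS1, SOS2, PTPN11, SHC1, NRAS, AKT2 and BCL6 did not (limma adjusted p from 0.0536 for BCL6 to 0.35 for AKT2).

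**Figure D4:**
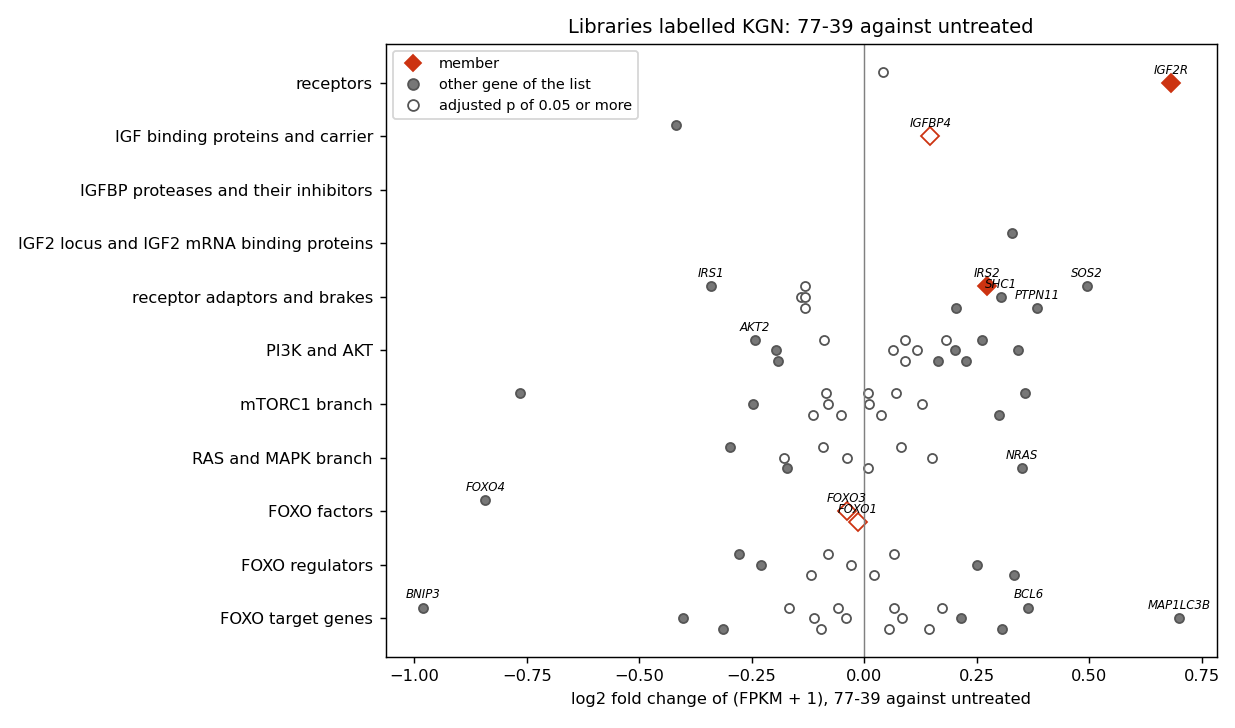
Log2 fold change of (FPKM + 1), 77-39 against untreated, in the libraries labelled KGN, for the 80 tested genes of the wider list by role; red diamonds are members and open symbols have an adjusted p of 0.05 or more. IGF2R at 0.68 and MAP1LC3B at 0.70 stand at the high end, FOXO4 at -0.84 and BNIP3 at -0.98 at the low end.

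In the libraries labelled COV434, none of the 7 members tested passed (limma, adjusted p under 0.05), none had an unadjusted p under 0.05, and none passed with limma voom on the recovered reads. Over all 12060 genes tested there, 5 genes (0.0415%) passed at the adjusted and 8% at the unadjusted threshold. The smallest p was that of FOXO3, with 4.64, 4.06 and 3.86 FPKM in untreated and 3.76, 3.27 and 2.51 FPKM in treated libraries. Every treated value was below every untreated one, by a log2 fold change of -0.32 (SE 0.16, limma adjusted p = 0.723). IGFBP4 was the other member whose groups did not overlap, with 88.7, 90.8 and 84.1 FPKM in untreated and 94.1, 101 and 102 FPKM in treated libraries (0.17, SE 0.14, limma adjusted p = 0.873). Non-overlap of this kind was seen in 14.4% of all genes tested there.

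The other members overlapped between treatments in the libraries labelled COV434. IGFBP3 had 51.3, 28.7 and 43.8 FPKM in untreated and 32.8, 27.6 and 31.5 FPKM in treated libraries (log2 fold change -0.39, SE 0.22). IRS2 had 25.5, 15.7 and 16.6 against 18, 11.7 and 14.5 FPKM (-0.35, SE 0.23), and FOXO1 2.44, 2.17 and 1.75 against 2.43, 1.33 and 1.26 FPKM (-0.25, SE 0.21). IGF1R had 6.99, 3.99 and 4.73 against 5.59, 4.73 and 4.44 FPKM (-0.05, SE 0.20), and IGF2R 18.6, 9.58 and 11.8 against 14.7, 13.5 and 10.7 FPKM (0.00, SE 0.24). Their limma adjusted p-values were 0.766 or higher. Between libraries of the same number, IGFBP3, IRS2, FOXO1 and FOXO3 were lower and IGFBP4 was higher with 77-39 in all 3 pairs, while IGF1R and IGF2R differed in sign among pairs. One sign in all 3 pairs was seen in 36.8% of all genes tested there, and no member passed in the fit that blocks on the library number, given below. For the 5 members tested in both lines, the standard error was 1.59 (IGFBP4) to 5.56 (IRS2) times that in the libraries labelled KGN, so a change of the size seen there for IRS2 was not detectable here.

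The spread in the libraries labelled COV434 followed the library number. Library 1 was the highest of its group for 6 of the 7 tested members in the untreated and for the same 6 in the treated libraries, with IGFBP4 the exception. Over all tested genes this held for 24.3%, for 34.1% of those with at least 4000 exon bases and for 11.7% of the shorter ones. IGFBP4, with 2200 exon bases, is the shortest of the 7 and the 1 below 4000. Mitochondrial reads, 7.3% to 13.5% of reads over the 12 libraries, were highest in the treated library 1 labelled COV434. Same-numbered untreated and treated libraries also deviated together, most clearly those numbered 1 and 2. With the library number as a replicate block 87 genes passed in place of 5, but no member did. The lowest adjusted p of a member was then 0.247 for IRS2, and FOXO3 had 0.362. Leaving out both libraries numbered 1, an alternative chosen after seeing the data, left 12 genes and no member.

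Of the 91 pathway genes tested in the libraries labelled COV434, none passed the adjusted threshold, and 1 was higher and 11 were lower at an unadjusted p under 0.05, beside 8% of all genes (424 higher and 541 lower of 12060). The one that was higher, GADD45A, a stress and arrest gene named after its value was seen, differed by 0.73 on the log2 scale (limma adjusted p = 0.538). BNIP3 led the others, with 26.3 ± 1.27 FPKM in untreated and 11 ± 2.1 FPKM in treated libraries (SD, n = 3; log2 fold change -1.20, limma adjusted p = 0.066, and 0.0369 with the replicate block). H19, SOCS3, SGK1, DDIT4, CCNG2, SOD2 and CITED2 followed, with log2 fold changes from -0.85 to -0.54 and limma adjusted p from 0.21 to 0.351. SGK1 is a kinase of the AKT family, DDIT4 an mTORC1 inhibitor, CCNG2 a cyclin of arrested cells, SOD2 the mitochondrial superoxide dismutase and CITED2 a CBP-binding coregulator. IGFBP1, a binding protein that FOXO1 is known to induce, had means of 0.457 and 1.03 FPKM without and with 77-39 there, under the filter, and no read in the libraries labelled KGN.

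Whether the members responded differently in the lines was tested as an interaction. None of the 7 members passed (limma, adjusted p under 0.05), beside 3.6% of all 13127 genes tested. At the unadjusted threshold 2 did. The log2 response of IGF2R was higher by 0.68 (SE 0.27, unadjusted p = 0.0311, limma adjusted p = 0.216) in the libraries labelled KGN, and that of IRS2 by 0.63 (SE 0.25, unadjusted p = 0.0272, limma adjusted p = 0.203). IRS2 passed with the replicate block (adjusted p = 0.0313) and without the COV434 libraries numbered 1 (adjusted p = 0.0179), and IGF2R under no alternative. IGFBP3 passed without the untreated COV434 library 2 (limma adjusted p = 0.0406). The other 5 members differed by -0.02 to 0.41, with limma adjusted p from 0.394 to 0.948. Of these, IGF1R and IGFBP3 averaged under 1 FPKM in the libraries labelled KGN and entered this test only through those labelled COV434. Such low levels change little on the log2(FPKM + 1) scale. The 0.41 of IGFBP3 is thus mostly its change of -0.385 in the libraries labelled COV434, with the sign turned. The call of IGFBP3 is therefore not read as a difference of responses. So the rise of IGF2R and IRS2 in one line was not shown to be particular to it by this test.

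Over the 12 libraries, after the mean of each line was subtracted, the genes whose log2(FPKM + 1) ran most like each member tested in both lines were listed as a description, among 10235 genes. For IGF2R these were SLC38A7, a lysosomal amino acid transporter (Pearson r = 0.978), and TSC1, a brake on mTORC1 (0.969). For IRS2 they were B4GALT1 (0.967) and IMPAD1 (0.948), and for FOXO3 ABL2 (0.978) and VGLL3 (0.961). For FOXO1 they were CCDC6 (0.963) and PARD3 (0.952). IGFBP4 had the weakest partners, PPCS (0.883) and EPOP (0.869). The libraries share their treatment, depth and the deviation by library number described above, all of which enter these values.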

How the data were processed

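Total RNA of KGN and COV434 cells was sequenced as TruSeq libraries. The authors deposited 1 table of FPKM values per gene for the 12 libraries, and the submitters' processing notes name HISAT2 2.0.5. The same notes name mouse builds although the identifiers are human, the extraction text in the labels speaks of retinas, and the counter is not given in the sources used here. Coordinates and lengths of all rows match GENCODE 29 on GRCh38. FPKM times length, rounded to whole reads, gave the read counts quoted. It fell on whole reads (tolerance 0.05) for 100% of the values checked. The check took only values above 0 with lower counts, so larger ones, such as those of IGF2R, were not covered. Groups follow the sample titles.

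log2(FPKM + 1) was fitted with limma 3.58.1 in R 4.3.3 (eBayes with trend) for genes averaging 1 FPKM or more over the libraries compared. The p-values were two-sided and Benjamini-Hochberg adjusted over all genes tested. The fit was also run on simulated libraries that were independent and lacked the deviation by library number. That run therefore says nothing on how the fit handles this deviation. Overlaps and motifs were computed in Python 3.11.15 with the promoter table of RefSeq. The comparisons were 77-39 against untreated in each line, the difference of the responses, and the untreated lines. Members and lists were chosen with earlier results of these data known. Besides the members, the text names up to 12 list genes with the smallest p per 77-39 comparison (up to 8 by unadjusted p where fewer than 4 pass), the 10 with the largest change between untreated lines, and the 2 genes most like each member; exceptions are stated. Library numbers of the titles paired the untreated and treated COV434 libraries numbered 1 and 2 (correlation of deviations 0.4 and 0.474). For number 3 the value was 0.166, near the 0.154 of untreated library 3 with treated library 2. The KGN libraries were not paired by number (-0.016, -0.018 and -0.019). 1 gene of the wider list is counted but not reported here by name.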

Additional observations from a re-analysis of the deposited data

Results flagged for a closer look

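Of 95 tested genes of the wider list, 4 (4.21%, near the 3.6% of all genes) passed the interaction test of limma between line and 77-39. The log2 response in the libraries labelled KGN minus that in those labelled COV434 was 0.86 for H19 (adjusted p = 0.0355), 0.66 for SGK1 (adjusted p = 0.0345), 0.68 for CCNG2 (adjusted p = 0.0145) and 0.85 for MAP1LC3B (adjusted p = 0.0102). H19 had 0 or 1 read in each library labelled KGN and entered this test only through those labelled COV434. Its difference is the fall from 122 ± 18.9 to 67.4 ± 12.8 FPKM (SD, n = 3) in the latter, with the sign turned. That fall was itself not past the threshold (limma adjusted p = 0.21). The call of H19 is therefore not read as a difference of responses. SGK1 had 12.7 ± 0.483 and 13.3 ± 0.327 FPKM in untreated and treated libraries labelled KGN and 36.4 ± 4.53 and 23.7 ± 2.44 FPKM in those labelled COV434. CCNG2 had 4.27 ± 0.156 and 4.58 ± 0.0883 FPKM in the first and 2.89 ± 0.0849 and 1.58 ± 0.268 FPKM in the second. MAP1LC3B had 21.9 ± 1.04 and 36.1 ± 0.0514 FPKM in the first and 23.8 ± 3.04 and 21.2 ± 1.14 FPKM in the second. Of 19 alternatives, MAP1LC3B passed in 19, CCNG2 in 16, SGK1 in 8 and H19 in 6. No group was large enough for a search for single outlying libraries.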

How the results depend on the processing

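Of 1004 recomputed results, 890 kept their direction and side of the threshold, or a count within 1.5 times. The calls of IRS2, IGFBP4, FOXO1 and FOXO3 between untreated lines held in all 14 alternatives. Of these, 2 are the same fit, since leaving out the COV434 libraries numbered 1 drops only untreated library 1 there. Between untreated lines IGF2R (-0.47) passed in 4 of 14, with that fit counted 2 times, and ranged from -0.72 to -0.28 with 1 library left out. Voom on the recovered reads moved the median of all genes there to -0.18. The 2 member calls in KGN fell to 0 in 1 fit of all 12 libraries, with 1237 genes called in place of 4307. With 1 library left out that count was 2751 (without the treated library 2) to 4128. The COV434 count of 5 was 3 with a pseudocount of 0.1 FPKM and 3 with a filter at 0.1 FPKM, 1 without a filter, 25 with voom, 488 in 1 fit of all 12 libraries, 12 without the libraries numbered 1, and 1 to 7 with 1 library left out. The replicate block gave 87. None of these gave a member call there. For the difference of the responses, the 472 genes became 264 with voom, 2007 without the COV434 libraries numbered 1, and 126 (without the treated KGN library 1) to 975 (without the treated COV434 library 1) with 1 library left out. The member count of 0 became 1 with the replicate block and 1 without the COV434 libraries numbered 1, and was 0 to 1 with 1 library left out. The replicate block changed no other member call. Members with changes near 0 turned in sign. With 1 library left out, IGF1R ran from -0.20 to 0.14 and IGF2R from -0.19 to 0.25 in COV434, FOXO1 from -0.05 to 0.03 and FOXO3 from -0.08 to 0.00 in KGN, and the difference of responses from -0.08 to 0.26 for IGF1R and -0.09 to 0.04 for IGFBP4. IGFBP4 was 0.04 there with a pseudocount of 0.1 FPKM and 0.04 with voom, and IGF1R in COV434 was 0.06 without the libraries numbered 1. The cause of these changes was not tested. Depth limits IGFBP3 in the untreated libraries labelled KGN (7 to 14 reads) and IGFBP2 and IGFBP5 in those labelled COV434 (no read).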
